A study of Mus musculus with 6 samples.

Results

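The genes described here carry glucose from the blood into the cell and through glycolysis and the pentose phosphate pathway, and were measured in bone marrow of diabetic and wild type mice. They were chosen by gene symbol, 32 in all, from the 19938 genes that had a probe set annotated to 1 symbol. Of the 32, 28 could be measured. Gapdh, the glycolytic dehydrogenase often used as a reference gene, was annotated to 25 probe sets that all carried other symbols too, and Gpi1, Eno1 and G6pdx had no single-symbol probe set in the annotation used, so these 4 were not analysed here. For a gene with several probe sets the one with the highest mean over all arrays was used.

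The series held 6 single-colour Affymetrix gene arrays of RNA from marrow flushed out of femurs and tibiae, 3 from wild type and 3 from diabetic mice, all male and 10 weeks old, with no treatment. The labels give the wild type genotype as BKS.Cg-Dock7m +/+ Leprdb/JNju and the diabetic genotype as BKS.Cg-Dock7m -/- Leprdb/JNju. Leprdb is the db allele of the leptin receptor gene, whose homozygotes become obese and diabetic, and Dock7m is the misty coat colour allele used with it. Both labels name both alleles, so they do not settle whether the wild type animals carried a db copy. The labels do not say if a single mouse or several gave the RNA of an array, so the p-values here speak of the spread among these arrays and no more. Values were log2 signals per probe set after robust multi-array averaging (RMA), which makes the distributions of the arrays alike, and the number of arrays limits the precision. Array medians lay between 7.67 and 7.73, and all 9 measured erythroid and all 11 measured late neutrophil markers passed the filter on low signal.

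As background, glucose enters most blood cells through the carriers GLUT1 and GLUT3, and a hexokinase traps it as glucose 6-phosphate. Glycolysis then yields pyruvate, which is reduced to lactate and exported or enters mitochondria through pyruvate dehydrogenase, while the pentose phosphate pathway takes glucose 6-phosphate to make NADPH and ribose. Neutrophils rely strongly on glycolysis, and maturing red cells depend on it once they lose their mitochondria. Txnip, an arrestin that lowers glucose uptake, is switched on by the glucose-sensing factors MondoA and ChREBP, so its RNA is widely read as a sign of high glucose inside the cell. Many glycolytic genes are also targets of the hypoxia factor HIF.

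3 promoters are shown because they hold the letters through which these factors are known to bind. The bases run 5′ to 3′ on the gene's strand over the 250 bases before the RefSeq start, on GRCm38.p6. In the Txnip promoter the capitals mark a carbohydrate response element, a pair of E-box-like motifs CACGNG set 5 bases apart, the layout that MondoA and ChREBP recognise, and in the Hk2 and Ldha promoters they mark ACGTG, the core of the hypoxia response element, on either strand.
Txnip, chr3:96557707-96557956, plus strand: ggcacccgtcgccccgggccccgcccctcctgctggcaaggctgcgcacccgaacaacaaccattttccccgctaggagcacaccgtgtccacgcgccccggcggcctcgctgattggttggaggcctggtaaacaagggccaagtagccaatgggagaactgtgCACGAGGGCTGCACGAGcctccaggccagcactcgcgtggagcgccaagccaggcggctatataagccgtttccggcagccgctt
Hk2, chr6:82774455-82774704, minus strand: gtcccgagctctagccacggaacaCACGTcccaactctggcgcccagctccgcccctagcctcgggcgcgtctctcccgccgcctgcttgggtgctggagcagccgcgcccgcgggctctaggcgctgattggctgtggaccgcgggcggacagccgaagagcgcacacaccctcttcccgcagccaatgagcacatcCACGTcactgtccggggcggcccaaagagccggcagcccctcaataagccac
Ldha, chr7:46845554-46845803, plus strand: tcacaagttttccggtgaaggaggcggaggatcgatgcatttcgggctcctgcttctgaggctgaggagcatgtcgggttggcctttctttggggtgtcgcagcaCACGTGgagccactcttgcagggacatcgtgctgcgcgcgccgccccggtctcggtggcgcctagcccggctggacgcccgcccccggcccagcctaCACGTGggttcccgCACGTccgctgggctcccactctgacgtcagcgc

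The pair in the Txnip promoter lay from -85 to -69 relative to the start. The same layout, on either strand, was in 15 of 32851 promoter windows of this length, or 0.0457%. This motif was chosen with the Txnip promoter in view. ACGTG was at -226 and -52 before Hk2, and matches to ACGTG on either strand were in 16.6% of all windows and in 16 of the 45 windows of the 31 genes matched to the table. Ldha has a second start in the table, which is not shown. The shorter E-box CACGTG, which also holds ACGTG, was in 6.02% of all windows and in 4 windows of these genes, before Ldha, Pfkfb3, Pfkm and Slc16a1. These matches describe the letters and do not show that a factor was bound.

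The comparison asked whether marrow of diabetic mice held other amounts of these RNAs than wild type marrow. None of the genes differed at an adjusted p of 0.05 (limma, p-values adjusted by Benjamini-Hochberg across 11940 genes), where 0.410% of all genes passed, 0.0838% with higher and 0.327% with lower values in diabetic marrow. All 28 measured genes had passed the filter on low signal, and their adjusted p values ran from 0.406 to 0.999. At an unadjusted p under 0.05 in limma 3 genes differed, Hk2 and Ldhb with higher and Aldoc with lower values in diabetic marrow, which is 10.7% of 28 against 7.16% of all genes. By direction, 7.14% of the 28 were higher against 3.99% of all genes, and 1 of 28 was lower against 3.17%. The log2 changes ran from -0.17 for Aldoc to 0.25 for Txnip. Since marrow is a mixture, a change in the share of a cell type and a change of RNA per cell cannot be told apart. The plot of values by array shows each gene's signals around its wild type mean.

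**Figure D1:**
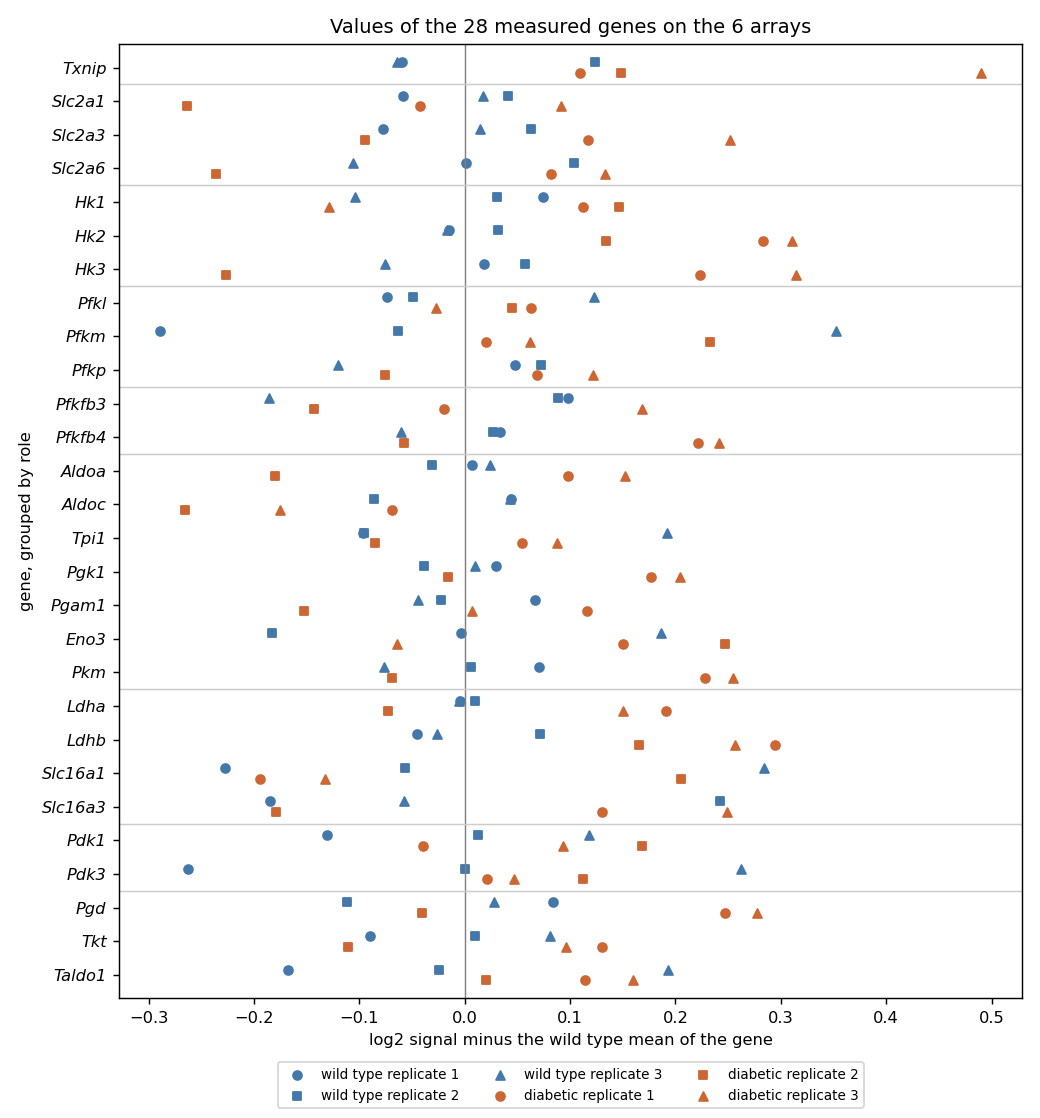
Log2 signal of each of the 28 measured genes on each array, minus the mean of the 3 wild type arrays of that gene, with genes grouped by role between grey lines and marker shapes for replicates 1 to 3. The diabetic and wild type points overlap for 26 genes and are separate for Hk2 and Ldhb. Diabetic replicate 2 is the lowest diabetic point in 20 of 28 genes.

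The intervals show how precisely the change of each probe set was measured. They are separate for each gene and not adjusted for the number of genes. For Hk1, Pgk1, Pgam1 and Ldhb, which RNA the probe set reads was not tested. For all 28 genes the 95% interval of the change in limma lay within 1.5-fold in either direction, as it did for 96.2% of all genes tested. The interval that reached farthest up was that of Txnip, to 1.42-fold, and the one that reached farthest down was that of Slc16a1, to a ratio of 0.765 of diabetic over wild type. The standard errors of the log2 changes ran from 0.065 to 0.15.

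**Figure D2:**
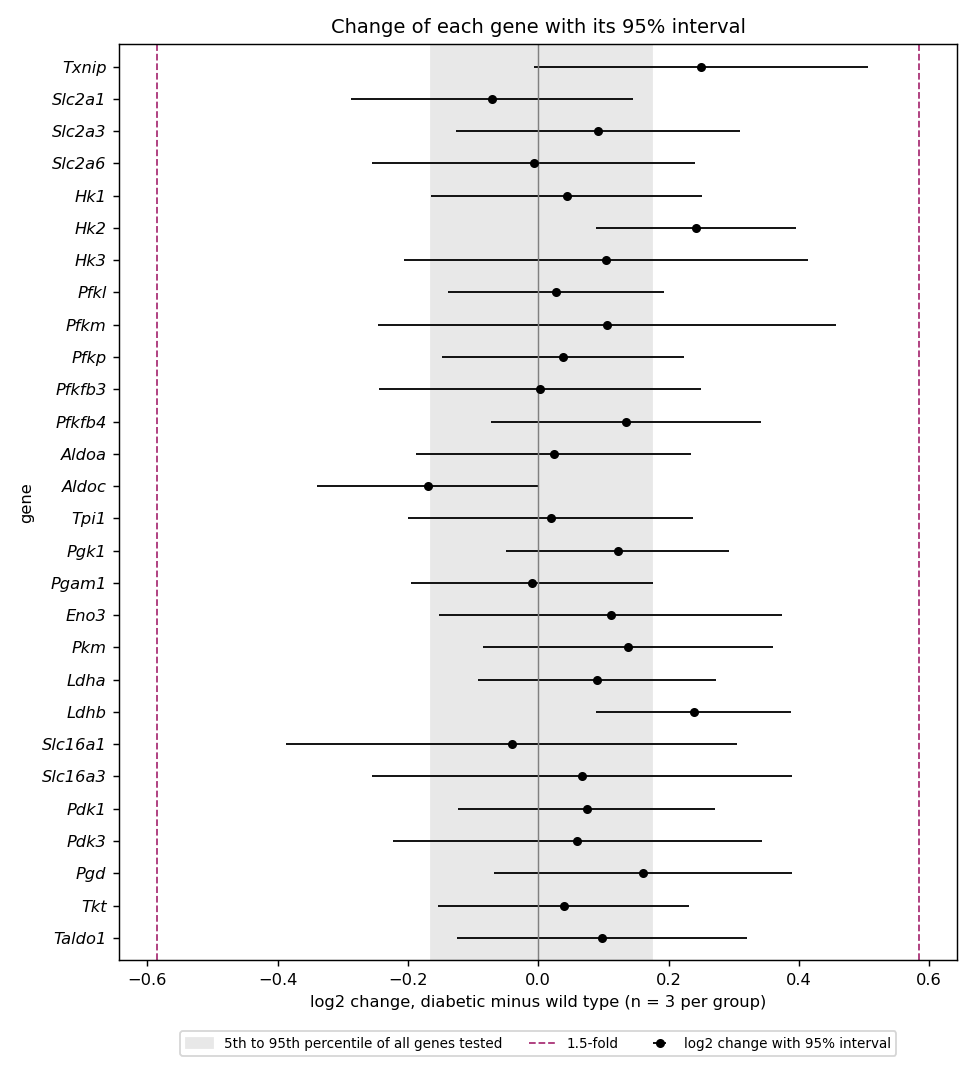
Log2 change of each gene, diabetic minus wild type, with its 95% interval from limma (3 arrays per group), the range between the 5th and 95th percentiles of all genes tested in grey, and dashed lines at 1.5-fold. Every interval lies between the dashed lines, and those of Hk2, Ldhb and Aldoc do not reach 0 before adjustment.

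More of the set lay on the higher side. In diabetic marrow 23 of 28 genes had higher and 5 lower means, with a median log2 change of 0.070, while 52.4% of all genes tested were higher and their median was 0.0047. When 1 array was left out, the median change of the 28 genes ran from 0.039, without wild type replicate 1, to 0.110, without diabetic replicate 2, and was 0.041 without diabetic replicate 1. These genes share arrays and cells, and no test was made on the set.

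Txnip, the glucose-responsive arrestin, had log2 signals of 11.97, 12.15 and 11.97 in wild type and 12.14, 12.18 and 12.52 in diabetic marrow. Diabetic replicate 3 stood above the other 5 arrays, and the lowest diabetic value was just under the highest wild type value. The log2 change was 0.25 ± 0.11 (SE, n = 3 per group), a ratio of 1.19 with an interval from 0.995 to 1.42, and the adjusted p was 0.704 in limma. Without diabetic replicate 3 the change was 0.13, and with arrays weighted by their fit it was 0.075. The largest weight, 6.78, fell on wild type replicate 2, the highest wild type array for Txnip, and the estimation of the weights had not converged.

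Arrdc4, the arrestin most like Txnip and a target of the same glucose sensors, is the nearest comparison. Its log2 signals were 8.53, 8.90 and 8.76 in wild type and 8.83, 8.67 and 9.27 in diabetic marrow. Diabetic replicate 3 was again the highest array, and the change was 0.19 ± 0.16 (SE) with it and 0.017 without it. Mlxip, which encodes MondoA, was at -0.11 ± 0.13 and Mlxipl, which encodes ChREBP, at -0.04 ± 0.08. The adjusted p values of these 3 genes in limma ran from 0.931 to 0.984. Mlxip depended on single arrays: leaving out wild type replicate 3 gave -0.27, while leaving out replicate 1 or replicate 2 of that group gave -0.025 and -0.026.

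Among the glucose carriers, Slc2a1, which encodes GLUT1, was at -0.07 ± 0.09 (SE, n = 3 per group) on the log2 scale. Its signals were 9.86, 9.96 and 9.94 in wild type and 9.88, 9.65 and 10.01 in diabetic marrow, so the diabetic arrays held both the lowest and the highest value. Slc2a3, which encodes GLUT3, was at 0.09 ± 0.09, and Slc2a6, a carrier of lysosomal membranes, at -0.01 ± 0.11. In all 3 genes diabetic replicate 2 was the lowest array and diabetic replicate 3 the highest.

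Of the hexokinases, which trap glucose in the cell, Hk2 had the clearest separation. Hk2, the inducible form bound to mitochondria, had log2 signals of 9.55, 9.60 and 9.55 in wild type and 9.85, 9.70 and 9.88 in diabetic marrow. Each diabetic value lay above each wild type value, which held for 2 of the 28 genes and for 6.99% of all genes tested. The opposite order held for 0 of the 28 and 5.38% of all genes, and separate groups in either direction for 12.4%. The change was 0.24 ± 0.07 (SE, n = 3 per group), a ratio of 1.18 with an interval from 1.06 to 1.32, and the adjusted p was 0.419 in limma. Leaving out 1 array gave changes between 0.21 and 0.30.

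Hk3, the form of myeloid cells, had signals of 10.32, 10.36 and 10.23 in wild type and 10.53, 10.08 and 10.62 in diabetic marrow. Its diabetic range of 0.54 was the widest of the 28 genes, and the change was 0.10 ± 0.13 (SE). Hk1, the form of most tissues, was at 0.04 ± 0.09, with the brighter of 2 probe sets. Of the 20 probe sets nearest to it by number 19 belong to genes of chromosome 14, while Hk1 lies on chromosome 10. The second probe set, whose 20 neighbours all belong to chromosome 10, gave 0.14 ± 0.12, and both sets had values that overlapped between the groups.

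The next steps commit sugar to glycolysis. Pfkl, Pfkm and Pfkp encode the liver, muscle and platelet forms of phosphofructokinase, and their changes were 0.03 ± 0.07, 0.11 ± 0.15 and 0.04 ± 0.08 (SE, n = 3 per group). Pfkm varied most, with signals of 8.79, 9.01 and 9.43 in wild type and 9.10, 9.31 and 9.14 in diabetic marrow. The wild type arrays of Pfkm spanned 0.64 and held all 3 diabetic values within their range. Pfkfb3 and Pfkfb4 encode enzymes that set the level of fructose 2,6-bisphosphate, the activator of phosphofructokinase. Pfkfb3 was at 0.0020 ± 0.11 and Pfkfb4 at 0.14 ± 0.09, with diabetic replicates 1 and 3 of Pfkfb4 at 10.15 and 10.17 above the other 4 arrays, which lay from 9.87 to 9.96.

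Lower glycolysis turns the split sugar into pyruvate, and 5 of its 7 measured genes had higher and 2 lower means in diabetic marrow. Aldoc, the aldolase best known from brain, had 7.89, 7.76 and 7.89 in wild type and 7.78, 7.58 and 7.68 in diabetic marrow. The groups met, since the highest diabetic value passed the lowest wild type value, and the change was -0.17 ± 0.07 (SE, n = 3 per group), and limma gave an adjusted p of 0.694. Its signal was near the filter of 7.52, and with array weights, whose estimation had not converged, the change was -0.04. Aldoa, the main aldolase of muscle and blood cells, was at 0.02 ± 0.09.

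Pgk1, which makes the first ATP of glycolysis, had 11.68, 11.61 and 11.66 in wild type and 11.83, 11.63 and 11.85 in diabetic marrow, a change of 0.12 ± 0.07 (SE). Pkm, the pyruvate kinase of most adult cells, had 11.87, 11.81 and 11.73 in wild type and 12.03, 11.73 and 12.06 in diabetic marrow, a change of 0.14 ± 0.10. In both genes diabetic replicates 1 and 3 lay above all wild type arrays and diabetic replicate 2 lay among them. Tpi1 and Pgam1, a triose isomerase and a phosphoglycerate mutase, were at 0.02 ± 0.09 and -0.01 ± 0.08. Eno3, the muscle enolase, was at 0.11 ± 0.11. The skeletal muscle marker list had 6 of 11 genes above the filter and array means of 7.51 to 7.64 in wild type and 7.53 to 7.61 in diabetic marrow, with Myh1 and Myh4, its myosin heavy chains, below the filter.

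Probe sets of the same gene could be compared in these genes. Pgk1 had 3 probe sets with changes from 0.11 to 0.12, of which 2 gave the same signals on every array. Pgam1 had 3, at -0.01, 0.02 and 0.02, the last 2 again with the same signals, and Pkm had 2, at 0.14 and 0.21. The brightest sets of Pgk1 and Pgam1 had neighbours on another chromosome than the gene, as those of Hk1 and Ldhb did, and which RNA such sets read was not tested.

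Lactate dehydrogenase joins pyruvate and lactate. Ldhb, the form that favours pyruvate, had log2 signals of 8.05, 8.16 and 8.07 in wild type and 8.39, 8.26 and 8.35 in diabetic marrow. The groups did not overlap, and the change was 0.24 ± 0.06 (SE, n = 3 per group), a ratio of 1.18 with an interval from 1.06 to 1.31 and an adjusted p of 0.406 in limma. The nearest 20 probe sets of this set held 17 of chromosome 19, while Ldhb lies on chromosome 6. Its second probe set, with 19 of 20 neighbours on chromosome 6, had 7.44, 7.65 and 7.63 in wild type and 7.87, 7.69 and 7.74 in diabetic marrow. The groups again did not overlap, though the gap from 7.65 to 7.69 was narrow, and the change was 0.19 ± 0.08. This second set was near the filter of 7.52, with wild type replicate 1 below it.

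Ldha, the form that favours lactate, had 12.03, 12.05 and 12.03 in wild type and 12.23, 11.96 and 12.19 in diabetic marrow. The wild type arrays had an SD of 0.0089 while the diabetic arrays lay on both sides of them, and the change was 0.09 ± 0.08 (SE). The lactate carriers Slc16a1, which encodes MCT1, and Slc16a3, which encodes the exporter MCT4, were at -0.04 ± 0.15 and 0.07 ± 0.14. Slc16a1 had 11.18, 11.35 and 11.69 in wild type and 11.21, 11.61 and 11.27 in diabetic marrow. Pdk1 and Pdk3, kinases that hold pyruvate dehydrogenase inactive, were at 0.07 ± 0.09 and 0.06 ± 0.12.

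**Figure D3:**
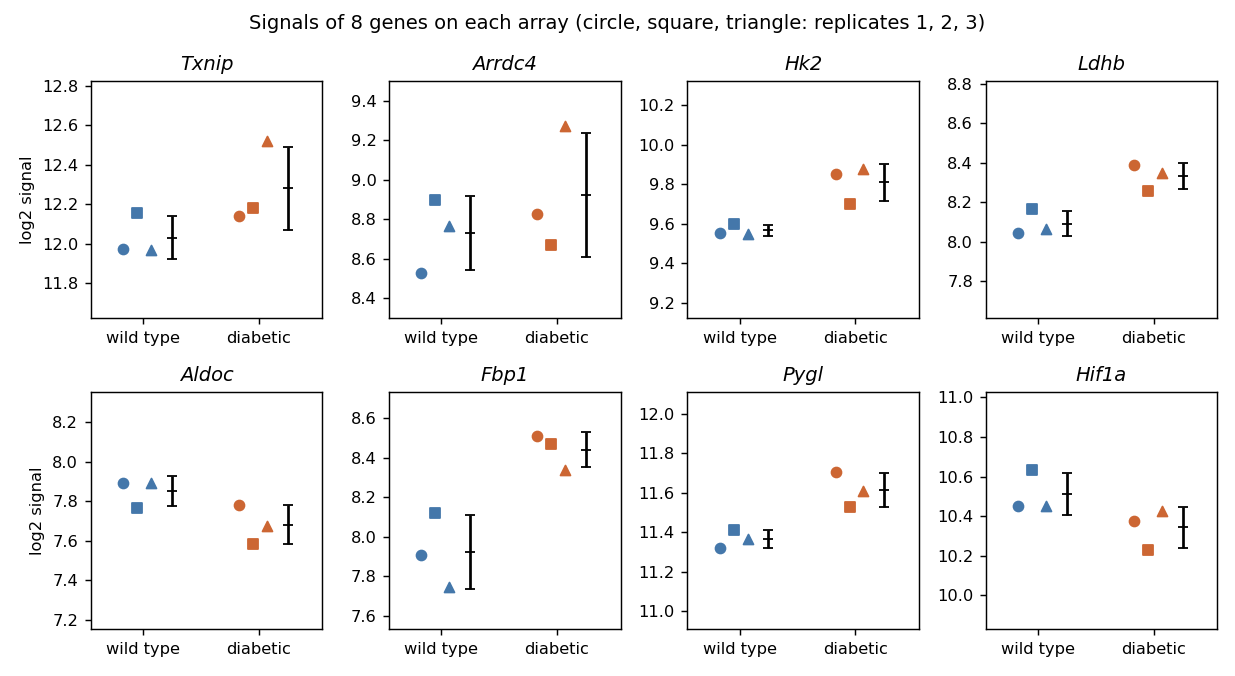
Log2 signal on each array of Txnip, Arrdc4, Hk2, Ldhb, Aldoc, Fbp1, Pygl and Hif1a, with the mean and SD of each group (n = 3) beside the points and every axis spanning the same log2 width. Hk2, Ldhb, Fbp1 and Pygl are higher and Hif1a lower on each diabetic array than on each wild type array, none past an adjusted p of 0.05.

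In the pentose phosphate pathway all 3 measured genes had higher means in diabetic marrow, and all 3 of the 95% intervals included 0. Pgd, which makes NADPH from 6-phosphogluconate, had 12.28, 12.08 and 12.22 in wild type and 12.44, 12.15 and 12.47 in diabetic marrow, a change of 0.16 ± 0.10 (SE, n = 3 per group). Tkt, transketolase, was at 0.04 ± 0.08, and Taldo1, transaldolase, at 0.10 ± 0.10. Taldo1 was at 0.014 without wild type replicate 1 and 0.19 without wild type replicate 3. Diabetic replicates 1 and 3 of Pgd were above the wild type arrays, and diabetic replicate 2 was within them.

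Most of the genes varied within a group by more than between the groups. In 26 of 28 genes the range of at least 1 group was wider than the difference of the means. The diabetic range was wider in 26 and the wild type range in 21. The share of all genes with such ranges is not given, so the count does not set these genes apart. Diabetic replicate 2 was the lowest diabetic array in 20 genes and diabetic replicate 3 the highest diabetic array in 16. Set against the mean of diabetic replicates 1 and 3, diabetic replicate 2 was lower in 21 of 28 genes, with a median difference of -0.19 over all 28. The share of all genes lower on this array is not given. On the same array all 6 promyelocyte markers were lower, by a median of -0.38, and 10 of 11 late neutrophil markers, with a median of -0.18 over all 11. All 5 T and NK cell markers were lower too, by a median of -0.35. So were 4 of 5 plasma cell, 4 of 6 skeletal muscle and 6 of 10 monocyte and macrophage markers. The medians over all markers of these lists were -0.098, -0.059 and -0.035. All 9 erythroid markers were higher, by a median of 0.30, and all 9 B cell precursor markers, by a median of 0.27.

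A smaller number of genes followed another order. Pfkl, Pfkm, Eno3, Slc16a1, Pdk1 and Pdk3 were higher on wild type replicate 3 than on wild type replicate 1 and higher on diabetic replicate 2 than the mean of diabetic replicates 1 and 3. For Pfkl that step was 0.027, and its diabetic replicate 1 was above replicate 2. All 9 erythroid markers did the same, with a median difference of 0.53 between wild type replicates 3 and 1, where the largest step of the 28 genes was the 0.64 of Pfkm. The 4 platelet and megakaryocyte markers followed the same order too, with median differences of 0.97 on the wild type step and 0.24 on the diabetic step. All 9 B cell precursor markers went the other way on the wild type step, by a median of -1.11, and were higher on the diabetic step. The list mean of erythroid markers ran from 11.99 to 12.56 in wild type and from 12.16 to 12.50 in diabetic marrow, with wild type replicate 3 and diabetic replicate 2 the highest of their groups. That of promyelocyte markers ran from 11.74 to 11.89 in wild type marrow and was lowest, at 11.63, on diabetic replicate 2. Neither list separated the groups.

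Of the other marker lists, 2 had means that did not overlap between the groups, while those of B cell precursors, platelets and megakaryocytes, T and NK cells and skeletal muscle overlapped. All 9 tested B cell precursor genes still had lower means in diabetic marrow. The mean of that list differed by -0.36, with wild type arrays spread from 9.68 to 10.76. The mean of 10 monocyte and macrophage markers was 9.94 to 10.12 on the wild type arrays and 9.76 to 9.87 on the diabetic arrays, with 6 of the 10 genes, Fcgr1 among them, lower on every diabetic array, an order that 5.38% of all genes had. Its other genes did not follow, since Cx3cr1 was higher on every diabetic array, at 0.20, and Csf1r, Adgre1 and Ccr2 were at -0.01, 0.27 and 0.05 with overlap. Of the 10 genes 1, Fcgr1, passed an adjusted p of 0.05 in limma, at 0.014, where 0.410% of all genes passed. The mean of 7 plasma cell markers was 8.98 to 9.43 on the wild type and 8.88 to 8.96 on the diabetic arrays, a narrow gap. All 5 tested genes of this list had lower means in diabetic marrow. Of these, 3 were lower on every diabetic array, again against 5.38% of all genes. None of these lists holds one of the 28 genes, and the part of these cells in the differences of the glucose genes was not tested.

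**Figure D4:**
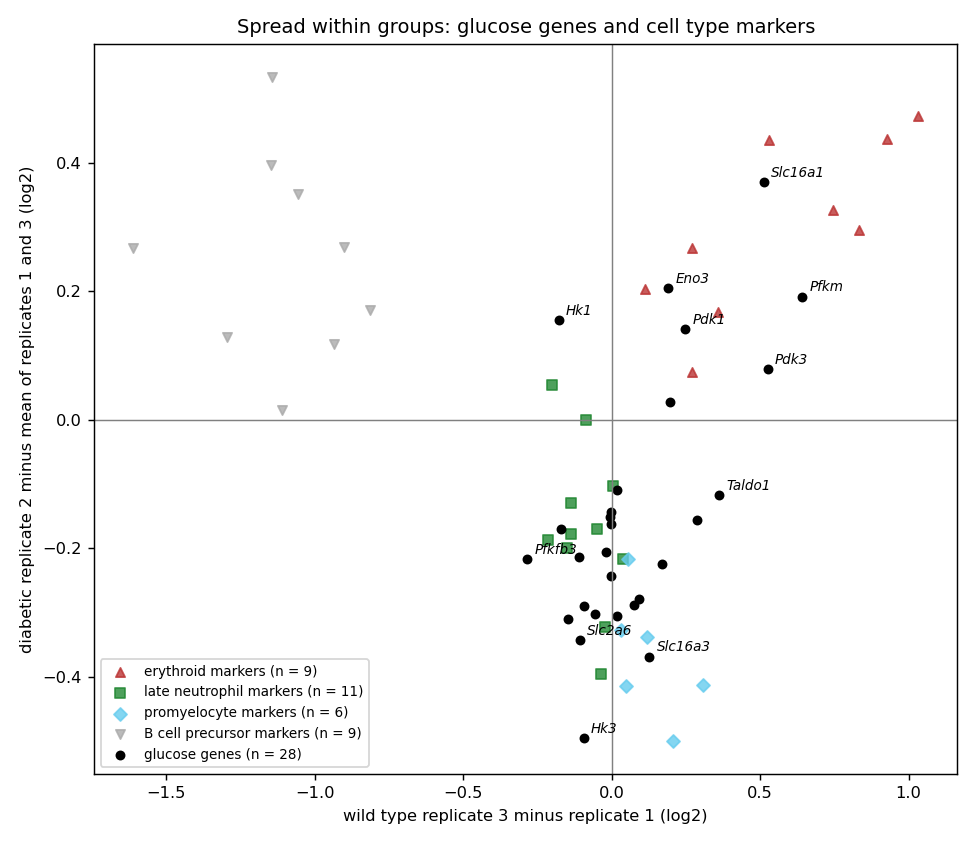
Each point is a gene, placed by the log2 difference of wild type replicate 3 and replicate 1 (x) and of diabetic replicate 2 and the mean of diabetic replicates 1 and 3 (y), for the 28 glucose genes and for markers of 4 marrow cell types. All 9 erythroid markers and 6 of the 28 genes are above 0 on both axes, and 21 of the 28 genes are below 0 on the y axis with most neutrophil and promyelocyte markers. All 9 B cell precursor markers are below 0 on the x axis and above 0 on the y axis.

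Leaving out diabetic replicate 2 raised the number of genes at an unadjusted p under 0.05 in limma from 3 to 8, and 0 passed the adjusted threshold. Leaving out any other array gave 2 to 4, and 0 passed. The share of all genes under an unadjusted 0.05 in these fits is not given, so these counts have nothing to be read against. Over all genes, 3 passed the adjusted threshold without diabetic replicate 2, where 49 did with all arrays. With array weights 5 genes passed, Hk2, Pgk1, Eno3, Ldhb and Pgd, but 1131 of all genes did too. The weights ran from 0.283 for wild type replicate 3 to 6.78 for wild type replicate 2, and their estimation stopped before it converged. When 1 array was left out, 15 of 28 genes changed direction and 10 more moved by over 1.5 times. The 3 that did neither, Hk2, Ldhb and Aldoc, were the same 3 under an unadjusted 0.05 in the main limma fit. A change that is small beside its SE turns easily, so this sorting largely repeats that of the p-values. How many of all genes turned or moved is not given, so these counts do not set the 28 apart.

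Beyond the 28 genes, 7 lists of further genes of glucose metabolism were read in the same fit. Of their 103 genes 95 were measured and 73 passed the filter on low signal, and 0 of these passed an adjusted p of 0.05 in limma. Weighting the arrays made 12 of the 73 pass, but also 1131 of the 11940 genes tested, and the estimation of the weights had not converged. Of the 12, 8 were higher (Fbp1, Pygl, Pgm1, Ugp2, Pdha1, Arrdc1, Egln3 and Ddit4) and 4 lower (Prps2, Pgls, Mlxip and Hif1a). At an unadjusted p under 0.05 in limma there were 9 higher and 1 lower, 13.7% of 73 against 7.16% of all genes. By direction, 12.3% of the 73 were higher against 3.99% of all genes, and 1 of 73 was lower against 3.17%. The median log2 change of the 73 was 0.030.

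Glycogen genes held 3 of the 9, out of 10 tested, where 3.99% of all genes were higher at that threshold. Pygl, the phosphorylase that releases glucose from glycogen in liver and myeloid cells, had 11.32, 11.41 and 11.37 in wild type and 11.70, 11.53 and 11.61 in diabetic marrow. Its groups did not overlap, and the change was 0.25 ± 0.07 (SE, n = 3 per group), and limma gave an adjusted p of 0.385. Ugp2, which makes the UDP-glucose that glycogen is built from, was at 0.26 ± 0.10, and Pgm1, annotated as a phosphoglucomutase, at 0.20 ± 0.07, both without overlap. Each diabetic value lay above each wild type value in 3 of the 10 tested genes and in 6.99% of all genes. Of the 10 tested genes of this list 7 were higher and 3 lower, from -0.08 for Pygb to 0.26 for Ugp2, with a median of 0.080.

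Among further enzymes of glycolysis and its reversal, Fbp1, the fructose bisphosphatase of gluconeogenesis, had 7.91, 8.12 and 7.75 in wild type and 8.51, 8.47 and 8.34 in diabetic marrow. The groups did not overlap, the change was 0.52 ± 0.10 (SE, n = 3 per group), a ratio of 1.43, and the adjusted p was 0.132 in limma. It was the largest change of its list, which had a median of 0.083 over 10 tested genes. Bpgm, which makes the 2,3-bisphosphoglycerate of red cells, was at 0.13 ± 0.11, and Tigar, which lowers fructose 2,6-bisphosphate, at -0.05 ± 0.08.

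Of the transport list, with 7 of 13 genes tested and a median of 0.040, Slc2a9, a carrier of urate, was highest at 0.16 ± 0.06 and Bsg, the partner protein of lactate carriers, lowest at -0.11 ± 0.10. Of the list for entry of pyruvate into mitochondria, with 11 of 13 tested and a median of 0.016, Pdha1, a subunit of pyruvate dehydrogenase, was at 0.14 ± 0.06, and Pdk2 at 0.04 ± 0.08, in a list that ran from -0.11 ± 0.20 for Pcx, pyruvate carboxylase, to 0.18 ± 0.11 for Pdhx, a pyruvate dehydrogenase component. Pdk4, a kinase that fasting and diabetes raise in muscle and liver, lay below the filter and was at 0.01 ± 0.10 in a fit with no filter. Of the further pentose phosphate and NADPH genes, with 7 of 11 tested and a median of 0.019, Prps2, which makes the ribose donor of nucleotide synthesis, was lowest at -0.23 ± 0.08. Idh1, the cytosolic isocitrate dehydrogenase that makes NADPH, was highest at 0.26 ± 0.12, with overlap and an adjusted p of 0.720 in limma. H6pd, Rpia and Pgls, enzymes of the pathway, were at 0.10 ± 0.08, -0.08 ± 0.10 and -0.19 ± 0.14.

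The arrestin and glucose-sensing list had 10 tested genes, 5 higher and 5 lower, and a median of 0.0041. In it Arrdc1, an arrestin of vesicle release, was at 0.21 ± 0.09. Of the HIF pathway and its targets outside glycolysis 18 of 22 genes were tested, 11 higher and 7 lower, with a median of 0.029. Hif1a, the oxygen-regulated subunit, had 10.45, 10.63 and 10.45 in wild type and 10.37, 10.23 and 10.43 in diabetic marrow, lower on each diabetic array, a change of -0.17 ± 0.08 (SE) with an adjusted p of 0.746 in limma. Egln3, a prolyl hydroxylase that HIF induces, was at 0.31 ± 0.11 and Ddit4, an inhibitor of mTOR that glucocorticoids also induce, at 0.58 ± 0.13, with an adjusted p of 0.607 and 0.230 in limma.

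**Figure D5:**
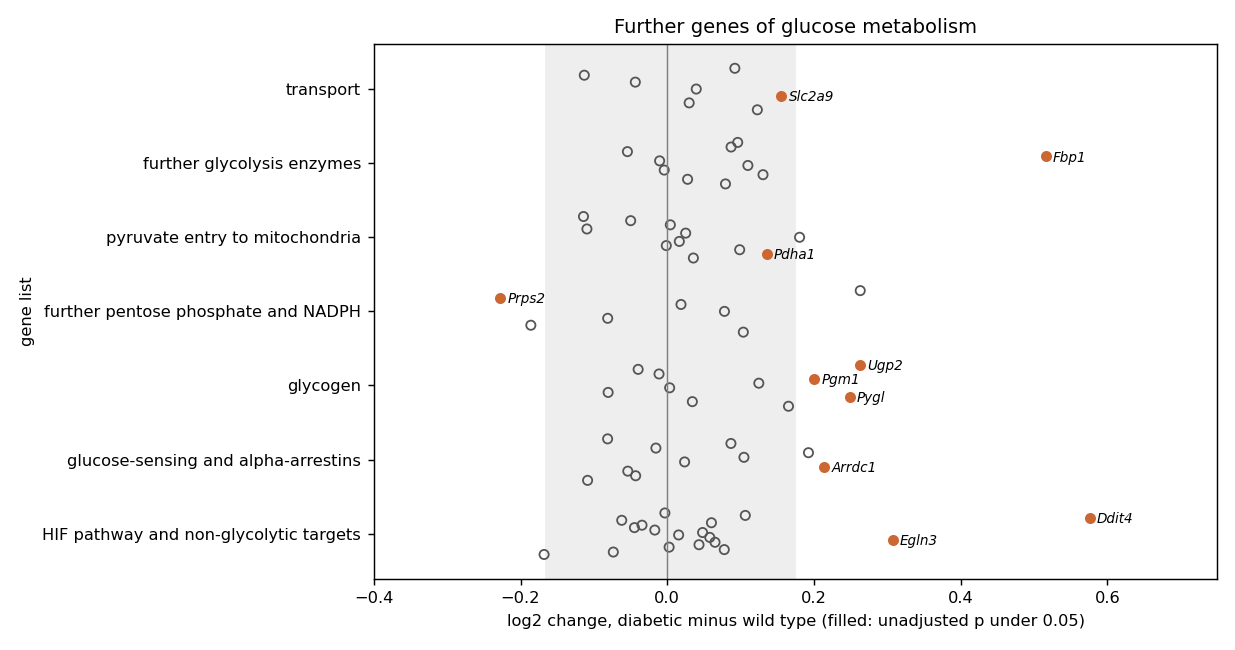
Log2 change, diabetic minus wild type, of the 73 tested genes of 7 lists of glucose metabolism, with genes at an unadjusted p under 0.05 filled and named and the range between the 5th and 95th percentiles of all genes in grey. Of the 10 filled genes 9 are higher and 1, Prps2, is lower, and Ddit4 and Fbp1 lie farthest out.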

How the data were processed

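The authors deposited log2 signals per probe set. Per the submitters' processing notes they came from Expression Console of Affymetrix, by RMA. Because RMA subtracts background, gives all arrays 1 distribution and then summarises probes, a shift shared by most genes cannot be seen. The version of the program and the genome build were not given in the sources used here.

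Of 35556 probe sets, the platform annotation gave 21789 a single symbol, 1621 several and 12146 none. Genes with a mean log2 signal at or above 7.52, the 40th percentile of single-symbol sets, were tested, 11940 of 19938. Groups were taken from sample titles and compared, two-sided, in R 4.3.3 with limma 3.58.1 (lmFit, then eBayes), with Benjamini-Hochberg adjustment over all genes tested. SE and 95% intervals are those of the fit. The fit was tested on simulated data. Promoter sequences are RefSeq's, on GRCm38.p6, and figures used matplotlib 3.10.9 in Python 3.11.15.

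The genes and lists were chosen with earlier results of these data known. Named were all measured genes of the set and, of the further lists, 11 fixed genes and those at an unadjusted p under 0.05, with the lowest and highest of some lists. Alternatives were other filters, further normalization, median centring, mean or chromosome-matched probe sets, trend and robust eBayes, array weights, a replicate block, an adjusted p of 0.10 and leaving out each array. The deviations of same-numbered arrays had correlations of 0.327, -0.0438 and -0.0541 for replicates 1, 2 and 3. Only for wild type replicate 1 was the same-numbered diabetic array the closest. The numbers were therefore not taken as pairs in the main fit.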

Additional observations from a re-analysis of the deposited data

How the results depend on the processing

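No gene of the set passed an adjusted p of 0.05 in limma under any alternative except array weights, where 5 did (Hk2, Pgk1, Eno3, Ldhb and Pgd), as did 1131 of all genes. With those weights 10 of the set were under an unadjusted 0.05. The share of all genes under an unadjusted 0.05 is not given for the alternatives. With the filter at the 60th percentile 1 gene was under an unadjusted 0.05, since Ldhb and Aldoc then fell out of the test. With the replicate block 2 of all genes passed in place of 49, and 0 of the set. With 1 array left out, the number of all genes that passed ran from 3 (without diabetic replicate 2) to 68, with 13, 5 and 12 without wild type replicate 2, diabetic replicate 1 and diabetic replicate 3. For the set, 0 passed each time, 2 to 8 were under an unadjusted 0.05, and the median change ran from 0.039 to 0.110. Of the 28 genes, 13 kept their direction in every alternative that tested them and 15 changed it with 1 array left out. How many of all genes did so is not given. Where a direction turned, the log2 changes with 1 array left out were Aldoa -0.041 to 0.13, Hk1 -0.0087 to 0.13, Hk3 -0.0018 to 0.27, Mlxipl -0.092 to 0.035, Pdk2 -0.038 to 0.095, Pdk3 -0.071 to 0.19, Pfkfb3 -0.091 to 0.074, Pfkl -0.010 to 0.088, Pfkm -0.039 to 0.28, Pfkp -0.022 to 0.095, Pgam1 -0.072 to 0.062, Rpia -0.17 to 0.013, Slc16a1 -0.16 to 0.10, Slc16a3 -0.026 to 0.19, Slc2a1 -0.15 to 0.025, Slc2a6 -0.077 to 0.11, Tigar -0.091 to 0.0039, Tkt -0.0072 to 0.11, Tpi1 -0.029 to 0.12. Of the others, 10 moved by over 1.5 times, Eno3 0.020 to 0.20, Ldha 0.039 to 0.17, Pdk1 0.0088 to 0.13, Pfkfb4 0.082 to 0.23, Pgd 0.10 to 0.26, Pgk1 0.080 to 0.19, Pkm 0.079 to 0.24, Slc2a3 0.011 to 0.18, Taldo1 0.014 to 0.19, Txnip 0.13 to 0.32. Pfkfb3 was -0.017 after quantile normalization and -0.0086 after median centring. Array weights gave Pfkfb3 -0.082, Pgam1 0.080, Pfkp -0.0044, Slc16a3 -0.089, Tigar 0.037, Pdk2 -0.043 and Mlxipl 0.053. Pgam1 was 0.013 with the mean of probe sets and 0.025 with the chromosome-matched set, an alternative chosen after seeing the data. The cause of these turns was not tested. With 3 arrays a group, changes within the intervals given above could not be resolved, and changes in cell makeup cannot be told apart from changes within cells.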
